A study of Mus musculus with 8 samples.

Results

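H3K27ac contacts of 7 genes of the formative and primed pluripotent states, Otx2, Fgf5, Fgf4, Pou3f1, Zic2, Sox3 and Foxd3, were followed through 8 HiChIP libraries of mouse embryonic stem cells. A loop, the unit of the deposited table, is a pair of anchors on 1 chromosome with a whole number of read pairs per library. Loops were chosen when an anchor lay within 5 kb of an annotated GRCm38 transcription start of 1 of the 7 genes. The rule took 165 of the 415681 loops, and these belonged to 4 of the 7 genes, Zic2 with 50 loops, Foxd3 with 42, Otx2 with 40 and Fgf4 with 33. For Fgf5, Pou3f1 and Sox3 the table listed no anchor within 5 kb of a start. The comparison asked whether the lines differ in their place between the naive and the primed state, as read from the contacts of these genes.

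Embryonic stem cells held with inhibitors of MEK and GSK3 resemble the naive epiblast of the early embryo. On release they pass through a formative state, in which Otx2, Pou3f1 and Fgf5 are switched on, before they reach the primed state of the later epiblast. FGF4 acts on the cells that secrete it and, through ERK, starts this transition, so Fgf4 is transcribed in naive cells although its effect is the exit from that state. H3K27ac marks active promoters and enhancers, and a HiChIP read pair reports the contact of an acetylated site with a second site.

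Per the labels, the 4 lines were B6 (strain C57BL/6J, line B6 5-1), D2 (strain DBA/2J, line D2 5-5), B6-13D2 (line QJ 6-1, B6.D2-(rs30079041-rs51756099)/Bakr) and D2-13B6 (line XE 2-4, D2.B6-(rs29224292-rs13469455)/Bakr), each with 2 technical replicates. The congenic lines carry an interval of chromosome 13 of the other strain, and the labels give a different marker for 1 end of the D2-13B6 interval in the description of the series. All cells grew in serum with LIF, the MEK inhibitor PD0325901 and the GSK3 inhibitor CHIR99021, so each group was measured under the medium that holds cells in the naive state, and no primed culture was among the samples. Each genotype is 1 cell line, so a difference between genotypes cannot be told apart from a difference between lines, and p-values measure only the spread between libraries of 1 line.

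Library totals ran from 737955 to 1425304 counts, and all 4 congenic libraries were deeper than the deepest parental one. The chosen loops held 0.0514% to 0.0639% of each library's counts, 4874 counts in all. In both D2-13B6 libraries 13.9% or more of the counts lay on chromosome 11, while elsewhere this share was 10.0% to 10.6%; none of the 7 genes lies there or on chromosome 13. The 8 pluripotency markers checked each had an anchor, with summed contacts of 2764 to 3953 CPM (counts scaled to the library total with TMM factors). Of the markers of other cell types, 1 of 7 of primitive endoderm had an anchor (4.50 to 12.5 CPM), 0 of 5 of mesoderm, 1 of 5 of neural ectoderm (18.7 to 31.5 CPM), 1 of 5 of trophoblast (8.01 to 15.0 CPM) and 4 of 7 of fibroblasts (54.0 to 91.5 CPM), with Gata4, Gata6, Sox17, Sox1, Pax6, Twist1 and Thy1 among those without. The reference used for D2 reads is not given in the sources used here, and the part of reads lost at D2 variants in any difference between backgrounds was not tested.

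The positions of the 4 contacting genes are given on GRCm38. The Fgf4 anchor, chr7:144850001-144875000, held 1 of its 2 annotated starts, at position 144861386, and the body of the principal transcript. The Otx2 anchor, chr14:48650001-48665000, held 2 of the 10 annotated starts, at positions 48661932 and 48662872, while the others lay upstream of it on the minus strand. The Zic2 anchor, chr14:122460001-122480000, also held the start of Zic5, the neighbour of Zic2 in a head-to-head pair, so that both genes had identical summed contacts. The Foxd3 anchor, chr4:99650001-99680000, held the single start of Foxd3 together with the noncoding genes Gm12688 and Gm23366.

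Promoter sequences are shown because they set the contacting genes beside a gene with a similar promoter and no anchor. RefSeq's GRCm38.p6 table matched 4 of the 7 genes, Foxd3, Fgf5, Fgf4 and Otx2. Each sequence below is the 250 bases before a RefSeq start, 5′ to 3′ on the gene's strand. For Otx2 it is the RefSeq start inside the anchor, which differs from the annotated starts at positions 48661932 and 48662872. Capitals mark GC boxes (GGGCGG) and CCAAT boxes (CCAAT) on either strand; TATA boxes (TATAAA) and the POU octamer core (TGCAAAT) were searched as well and had no match in these 4 sequences.
Fgf4, chr7:144861136-144861385, plus strand: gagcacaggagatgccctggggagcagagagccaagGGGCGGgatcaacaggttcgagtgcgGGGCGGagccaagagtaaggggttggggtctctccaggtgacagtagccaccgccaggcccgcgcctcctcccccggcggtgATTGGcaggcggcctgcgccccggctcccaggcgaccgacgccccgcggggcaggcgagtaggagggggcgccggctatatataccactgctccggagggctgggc
Foxd3, chr4:99656049-99656298, plus strand: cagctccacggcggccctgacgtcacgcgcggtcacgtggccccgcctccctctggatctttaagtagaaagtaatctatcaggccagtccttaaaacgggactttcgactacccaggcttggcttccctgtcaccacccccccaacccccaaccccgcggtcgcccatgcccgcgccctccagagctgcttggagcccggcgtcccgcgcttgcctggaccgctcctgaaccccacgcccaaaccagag
Fgf5, chr5:98253934-98254183, plus strand: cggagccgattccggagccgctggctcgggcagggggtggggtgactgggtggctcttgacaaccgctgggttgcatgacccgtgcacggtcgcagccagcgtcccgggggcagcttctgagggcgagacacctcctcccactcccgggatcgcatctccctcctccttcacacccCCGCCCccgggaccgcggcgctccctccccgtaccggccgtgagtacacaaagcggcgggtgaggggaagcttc
Otx2, chr14:48662735-48662984, minus strand: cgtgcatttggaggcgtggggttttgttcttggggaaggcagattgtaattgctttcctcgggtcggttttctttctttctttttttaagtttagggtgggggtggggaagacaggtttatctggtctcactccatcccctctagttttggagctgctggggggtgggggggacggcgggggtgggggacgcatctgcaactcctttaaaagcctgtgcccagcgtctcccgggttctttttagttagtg
The Fgf4, Foxd3 and Fgf5 promoters had GC contents of 71.2%, 65.6% and 70.8%, and 21, 21 and 24 CpG dinucleotides, against medians of 52.4% and 6 over 32851 promoters of the same length. The Otx2 promoter shown had 53.6% and 9. The Otx2 promoters of RefSeq starts outside the anchor had 42% to 49.2% and 6 to 14. Fgf5, without a listed anchor, therefore did not stand apart from Fgf4 and Foxd3 in base composition. The GC box, matched 2 times in Fgf4 and 1 time in Fgf5, occurred in 32.7% of all promoters, the CCAAT box in 33.8%, the TATA box in 12.4% and the octamer core in 3.56%.

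A second set of sequences is shown because Fgf4 is the textbook case of an enhancer bound jointly by SOX2 and OCT4 downstream of a gene. The composite of a SOX part (TTGT) and a POU part (ATGCNAA), with a spacer of 1 base (TTGTNATGCNAA) or of 4 bases (TTGTNNNNATGCNAA), was searched on both strands of the 4 promoter anchors and their 24 tested partner anchors. The longer spacing was included because the Fgf4 element is known to have it. Capitals mark the match.
Fgf4 anchor, chr7:144864390-144864416, plus strand: aactctTTGTTTGGATGCTAAtgggat
Foxd3 partner anchor, chr4:99636069-99636163, minus strand: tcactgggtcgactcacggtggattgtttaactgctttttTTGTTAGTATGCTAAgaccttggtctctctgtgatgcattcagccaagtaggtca
Zic2 partner anchor, chr14:122349423-122349517, plus strand: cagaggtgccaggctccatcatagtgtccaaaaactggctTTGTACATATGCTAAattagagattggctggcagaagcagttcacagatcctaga
The Fgf4 match lay in the 3′ untranslated region of Fgf4, 3.01 kb from the start inside the anchor. The Foxd3 match was intergenic, in the partner with the most contacts, 20.2 kb from the start of Foxd3. The Zic2 match lay in an intron of Clybl, 126 kb from the start of Zic2. The match in the Fgf4 anchor was known in advance and is no evidence of enrichment. Among the 24 partners 2 had a match, where anchors of the same widths have one in 6.63% of cases on average. Among anchors as wide as these 3, it was present in 10.5% (25 kb), 7.17% (15 kb) and 9.03% (20 kb). A match is a description of the letters and not of binding.

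Per 5 kb of anchor, Zic2 and Foxd3 had the highest contact levels, with 38.4 ± 5.37 and 37.3 ± 4.43 CPM (SD over 8 libraries). Fgf4 followed with 31.6 ± 3.88 CPM, and Otx2 was lowest with 13.5 ± 2.95 CPM. The ranges over libraries overlapped among Zic2 (31.7 to 45.7), Foxd3 (29.9 to 43.3) and Fgf4 (26.7 to 38.1). Otx2, at 10.1 to 19.1 CPM per 5 kb, lay below every library of the other 3 genes. These levels include contacts inside the anchor. For contacts leaving it, 5-kb bins of the anchor held 88 to 105 counts over all libraries at Otx2 and 83 to 157 at Fgf4. These overlapped, while the bins held 150 to 324 at Foxd3 and 172 to 414 at Zic2.

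Contacts of the 4 genes differed in where they went. Of all counts of Fgf4, 54.0% lay inside its own anchor, against 32.8% for Foxd3, 11.7% for Otx2 and 8.68% for Zic2. Only bins at least 10 kb apart were paired, and the anchors had room for 6 inner pairs of bins at Fgf4 (25 kb), 10 at Foxd3 (30 kb), 1 at Otx2 (15 kb) and 3 at Zic2 (20 kb). The share did not follow the width in order, and the part of width in the difference was not tested. Among counts that left the anchor, those with a gap under 100 kb made up 81.8% for Foxd3, 61.4% for Otx2, 61.2% for Zic2 and 43.3% for Fgf4. Of the 161 loops to other anchors, 106 spanned a gap over 500 kb, mostly with few counts, and 72 had a partner within 5 kb of the start of a coding gene. The number of loops that joined 2 of the 7 genes was 0. A total of 31 loops had a single count, 34 had counts in all 8 libraries, and 28 passed the filter on low counts, holding 86.1% of the 4874 counts.

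**Figure D1:**
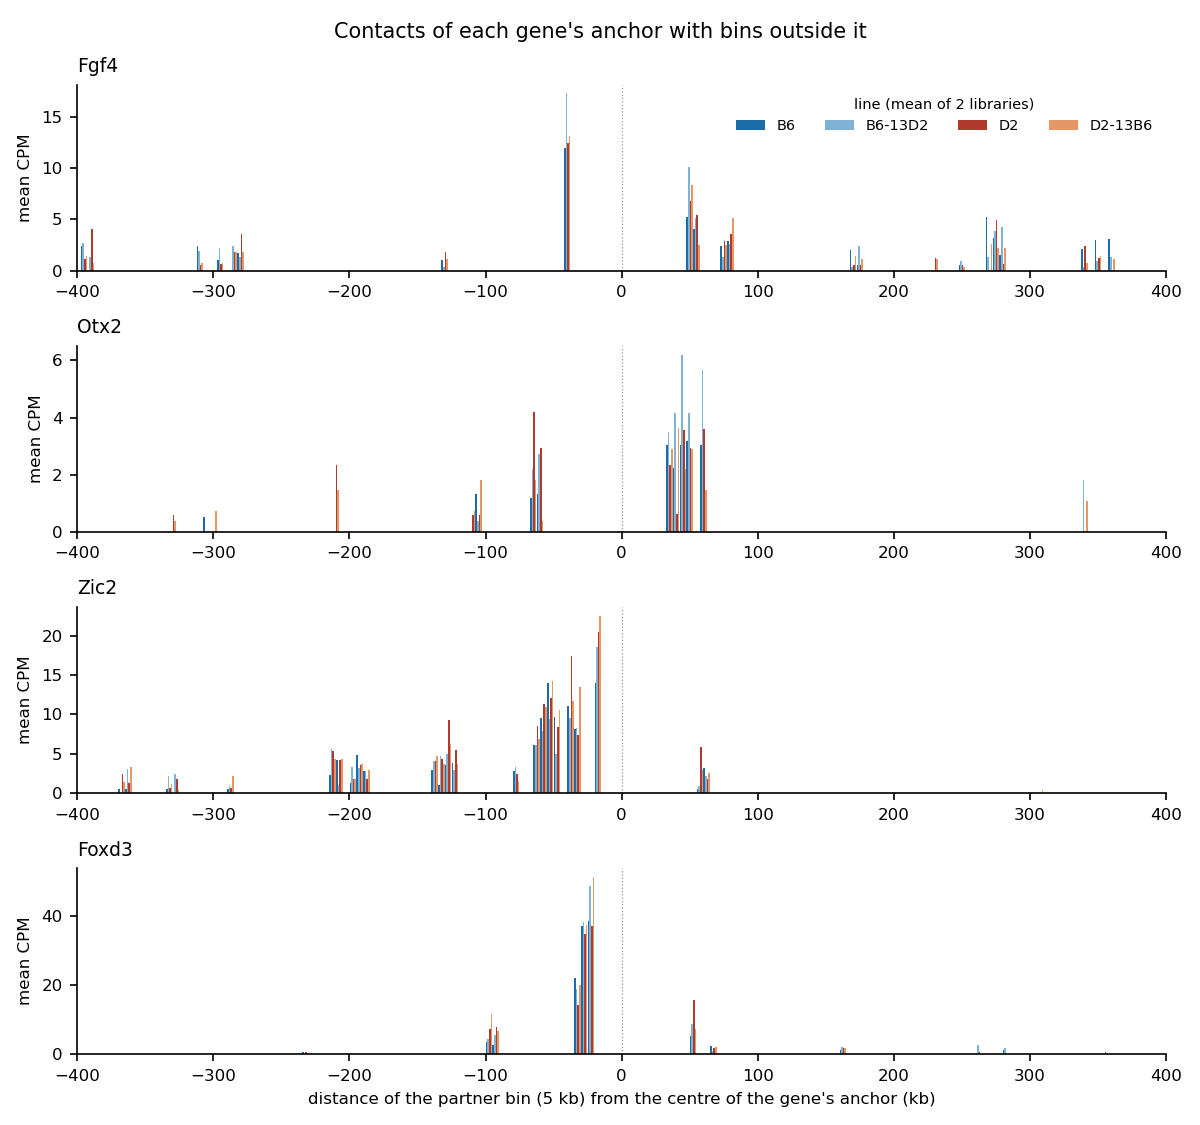
Contacts of the Fgf4, Otx2, Zic2 and Foxd3 anchors with 5-kb bins outside them, in mean CPM over 2 libraries of each line (colours), against the distance in kb from the centre of the anchor. In each line the highest bin lay left of the anchor for Zic2, Foxd3 and Fgf4, and for Otx2 it lay right of the anchor in 3 lines and left of it in D2; right of the Foxd3 anchor a bin reached 15.7 CPM in D2.

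Fgf4 encodes the secreted ligand of the FGF receptors. Its summed contacts were 173 and 139 CPM in the B6 libraries and 133 and 191 in those of B6-13D2, and 149.9 and 168 for D2 beside 145 and 165 for D2-13B6. The lines overlapped throughout, and the pair of B6-13D2 libraries spanned the whole range. Means were 156 ± 24.1 (SD, n = 2) for B6, 162 ± 40.4 for B6-13D2, 159 ± 12.6 for D2 and 155 ± 14.3 for D2-13B6. Inside the anchor there were 724 counts, with 90 and 54 in B6, 56 and 143 in B6-13D2, 64 and 72 in D2, and 109 and 136 in D2-13B6. The loop to another anchor with the most counts, 116, went to chr7:144820001-144825000, an intergenic site with a gap of 25 kb. It had 14 and 7 counts in B6, 19 and 19 in B6-13D2, 14 and 7 in D2, and 24 and 12 in D2-13B6. In CPM these were 14.4 and 9.30, 19.6 and 14.03, 16.5 and 9.13, and 17.5 and 8.64, so that the lines overlapped. The other tested partners, named after their values were seen, were LTO1 (101 counts), an intergenic site at chr7:145130001-145145000 (67), Ccnd1, the gene of cyclin D1 (50), Fadd, the adaptor of death receptors (30), and the anchor of Cttn and Ppfia1 (28).

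Otx2 encodes the homeobox factor that drives the move from the naive to the formative state. Its contacts were sparse, with 29 and 31 counts in B6, 45 and 54 in B6-13D2, 50 and 31 in D2, and 44 and 48 in D2-13B6. In CPM these were 30.2 and 41.0, 48.1 and 40.5, 57.2 and 39.1, and 32.1 and 34.8. Both libraries of D2-13B6 were below both of D2, whereas B6-13D2 overlapped B6 by a narrow margin. The largest loop left the anchor for chr14:48690001-48710000, across a gap of 25 kb, where Gm25380, Gm48909 and Gm49153 start, none of them annotated as coding. It held 107 counts, 8 and 11 in B6, 19 and 21 in B6-13D2, 11 and 5 in D2, and 15 and 17 in D2-13B6. Inside the anchor there were 39 counts, between 3 and 8 per library.

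Zic2 encodes a zinc finger factor that binds enhancers in pluripotent cells. Its summed contacts were higher in lines with the D2 genome background, whichever allele of the interval they carried. They were 128 and 141 CPM in B6 and 145 and 127 in B6-13D2, against 173 and 174 in D2 and 157 and 183 in D2-13B6. All 4 libraries with the D2 background lay above all 4 with the B6 background, a separation in either direction that 15.9% of the 11627 tested genes shared. The means were 172 ± 10.8 CPM (SD, n = 4) and 135 ± 9.29 CPM (SD, n = 4).

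The contacts of Zic2 ran mostly toward Clybl. The largest loop, 316 counts, went to chr14:122405001-122425000 across a gap of 35 kb, where an antisense transcript named Gm5089 starts. It had 31 and 35 counts in B6, 22 and 44 in B6-13D2, 33 and 34 in D2, and 60 and 57 in D2-13B6. In CPM it was lower in B6-13D2 (22.7 and 32.5) than in D2 (38.9 and 44.3) and D2-13B6 (43.8 and 41.1). B6 (31.9 and 46.5) overlapped every other line. The share of loops without overlap was not computed for these pairs of lines. In the pairs tested it was 38.4% to 42.2%, and this loop was called in no contrast. Sites at chr14:122430001-122440000 (182 counts), chr14:122450001-122455000 (162) and chr14:122330001-122350000 in the body of Clybl (145) followed, and 112 counts lay inside the anchor. The 5-kb bin that holds both Zic2 starts took 14.6% of the contacts leaving the anchor. The bin at chr14:122465001-122470000, within the anchor and without a start of Zic2, took 35.1%. The anchor also holds starts of Zic5 and 2610035F20Rik, which were not assigned to bins.

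Foxd3 encodes a forkhead factor that the pluripotent epiblast requires. Its summed contacts were 222 and 179.7 CPM in B6, 259.5 and 251 in B6-13D2, 228 and 195 in D2, and 221 and 237 in D2-13B6. B6-13D2 had the highest mean, 255.1 ± 6.24 (SD, n = 2), and both its libraries exceeded all 6 others, as for 7.81% of all genes; some line stood above or below all others in 53.4%. A single partner, the intergenic site chr4:99630001-99645000 only 5 kb from the anchor, took 852 counts, 66.4% of those leaving the anchor. That loop had 101 and 68 counts in B6, 99 and 141 in B6-13D2, 82 and 62 in D2, and 140 and 159 in D2-13B6. In CPM these were 104 and 90.3, 102 and 104, 96.7 and 80.8, and 102 and 115. The lines overlapped except that D2 lay below B6-13D2 and D2-13B6. In D2 against D2-13B6, 40.6% of all tested loops did not overlap. The share for D2 against B6-13D2 was not computed. Inside the anchor there were 626 counts. In CPM these were 72.1 and 55.8 in B6, 85.5 and 93.0 in B6-13D2, 71.9 and 59.98 in D2, and 67.9 and 75.6 in D2-13B6. B6-13D2 was again highest, and in B6-13D2 against B6 38.4% of all tested loops did not overlap.

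**Figure D2:**
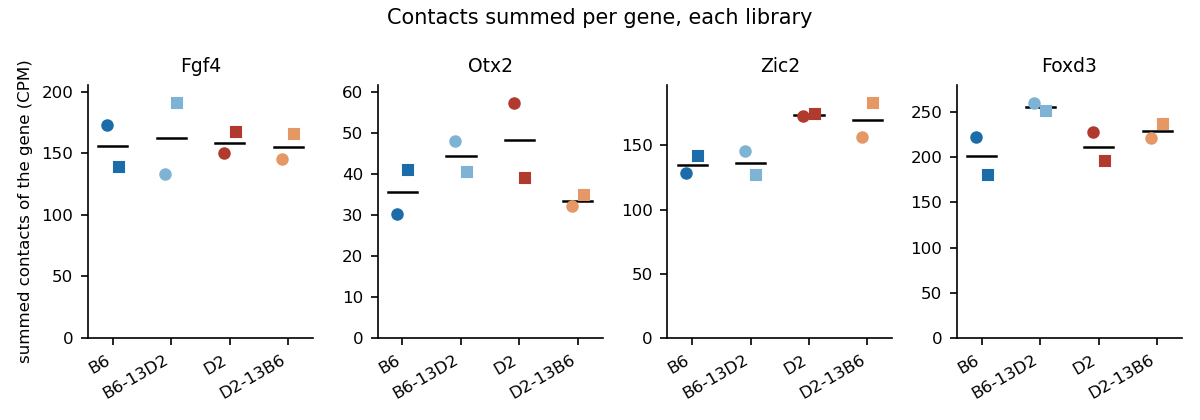
Summed contacts of each gene in CPM, for each library (circles, replicate 1; squares, replicate 2) of the 4 lines, with the line's mean as a bar. Zic2 lay between 127 and 145 CPM in the 4 libraries of B6 background and between 157 and 183 CPM in the 4 of D2 background, while Fgf4 overlapped in all lines.

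The 3 remaining genes had no listed anchor at a start. Pou3f1, which encodes the POU factor OCT6, lay at chr4:124656807-124660655, and the anchor nearest to its start was 33.2 kb from it, at the start of Utp11 (chr4:124690001-124695000, 296 counts over all its loops). Fgf5, the ligand used as the classical marker of the primitive ectoderm, lay at chr5:98254184-98277030, and the nearest anchor (chr5:98340001-98345000, 11 counts) was 85.6 kb from the closer of its 2 starts, at position 98254412. Sox3, a relative of Sox2, lay at chrX:60891366-60893430, and the anchor nearest to its start was 362 kb from it and had 3 counts. These anchors were the nearest in the table for all lines together, since loops were listed once for the series. A missing anchor means that no loop was listed, not that contacts were absent, because only pairs of bins 10 kb to 2 Mb apart were in the files.

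All 19 genes of a list of naive state genes had an anchor, as did 21 of 26 further formative or primed genes, 29 of 31 genes of the FGF and ERK pathway, and 58.0% (12722) of 21951 coding genes. Tcf15, Cer1, Fgf15, Krt18 and Otx1 were the formative or primed genes without one. With 4 of 7, the members' share was 57.1%, close to that of all coding genes.

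Differences between lines were tested on summed counts of all 11627 genes that passed the filter, with edgeR's quasi-likelihood test and Benjamini-Hochberg adjustment at a false discovery rate (FDR) of 0.05. In D2 against B6, 0 of the 4 genes were called, against 10.3% of all genes, with 1 gene at an unadjusted p under 0.05 and 0 called by DESeq2. Zic2 came nearest, with a log2 fold change of 0.37 (SE 0.15, 95% interval 0.08 to 0.66, FDR 0.0967). Its libraries did not overlap between these lines, which held for 49.4% of all genes. Otx2 was at 0.47 (SE 0.26, FDR 0.28; 0.15 without the first D2 library, 0.23 without the first B6 library), Foxd3 at 0.07 (SE 0.13, FDR 0.825) and Fgf4 at 0.01 (95% interval -0.30 to 0.32, FDR 0.981).

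Replacing the interval in the B6 background, B6-13D2 against B6, likewise gave 0 calls of 4, against 5.7% of all genes, with 1 gene at an unadjusted p under 0.05. Foxd3 had the largest value, 0.33 (SE 0.13, 95% interval 0.08 to 0.58, FDR 0.112), and its libraries did not overlap, as for 45.2% of all genes. In the D2 background, D2 against D2-13B6, 0 of 4 were called against 8.95% of all genes, again with 1 at an unadjusted p under 0.05. This was Otx2, which had the largest value, 0.54 (SE 0.24, 95% interval 0.06 to 1.01, FDR 0.171), with libraries that did not overlap, as for 53% of all genes. Without the first D2 library the value of Otx2 was 0.25 (FDR 0.779), and without the second 0.79 (FDR 0.12). The value of Foxd3 above was 0.21 (FDR 0.449) without the second B6 library and 0.497 (FDR 0.0572) without the first. DESeq2 called 0 of the 4 in both comparisons and gave no adjusted p for Otx2 in either.

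The averaged interval effect, the D2 allele minus the B6 allele over both backgrounds, gave 0 calls of 4, against 8.77% of all genes, with 1 gene at an unadjusted p under 0.05. DESeq2 also called 0, but gave no adjusted p for that gene. It was Otx2, with contacts of 46.2 ± 8.32 CPM (SD, n = 4) under the D2 allele and 34.5 ± 4.69 CPM (SD, n = 4) under the B6 allele. Its log2 fold change was 0.43 (SE 0.17, 95% interval 0.08 to 0.77, FDR 0.116), and the ranges of 39.1 to 57.2 and 30.2 to 41.0 CPM overlapped. Without the second B6 library the value was 0.55 with an FDR of 0.0446, the smallest over the alternatives, and without the first D2 library it was 0.28 with an FDR of 0.483, the highest. Fgf4, Zic2 and Foxd3 were at 0.05, 0.02 and 0.11, with 95% intervals of -0.15 to 0.26, -0.18 to 0.22 and -0.07 to 0.29.

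The averaged background effect, D2 minus B6 over both alleles, gave the one call among the 4 genes. Zic2 contacts rose by a log2 fold change of 0.35 (SE 0.10, 95% interval 0.16 to 0.55, FDR 0.00489), a ratio of 1.27, in 4 of 4 libraries against 4. This is 1 gene of 4, beside 24.2% of all genes, so the share of members called was near the share in the whole table. The call was lost with DESeq2 (0.34, FDR 0.0756) and without the second D2-13B6 library (0.29, FDR 0.0639), and over the alternatives run the value stayed between 0.29 and 0.45 and the FDR between 0.000156 and 0.0756. With the replicate number as a block it was 0.35 (FDR 0.00839), and without contacts inside the anchor 0.36 (FDR 0.00509). Zic5 shares the anchor, so the measurement does not tell the 2 genes apart. Otx2, Fgf4 and Foxd3 were at 0.04, -0.04 and -0.04, with 95% intervals of -0.31 to 0.39, -0.24 to 0.17 and -0.22 to 0.13.

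The interaction, the interval effect in the D2 background minus that in the B6 background, gave 0 calls of 4, against 6.92% of all genes, with 1 gene at an unadjusted p under 0.05 and 0 called by DESeq2, which gave no adjusted p for Otx2. The gene with the low p was Foxd3, at -0.44 (SE 0.18, 95% interval -0.80 to -0.09, FDR 0.124). Its interval effect was 0.33 in the B6 background and -0.11 in the D2 background. Without the first B6 library the interaction was -0.59 with an FDR of 0.0443, without the second it was -0.30 (FDR 0.406), and under library totals alone -0.28 (FDR 0.367). Over the alternatives the FDR reached 0.421. Over all genes, 19.0% to 23.1% had an unadjusted p under 0.05 in the 5 contrasts with 0 calls of 4. The plot of all 6 contrasts shows Fgf4 with every interval spanning 0.

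**Figure D3:**
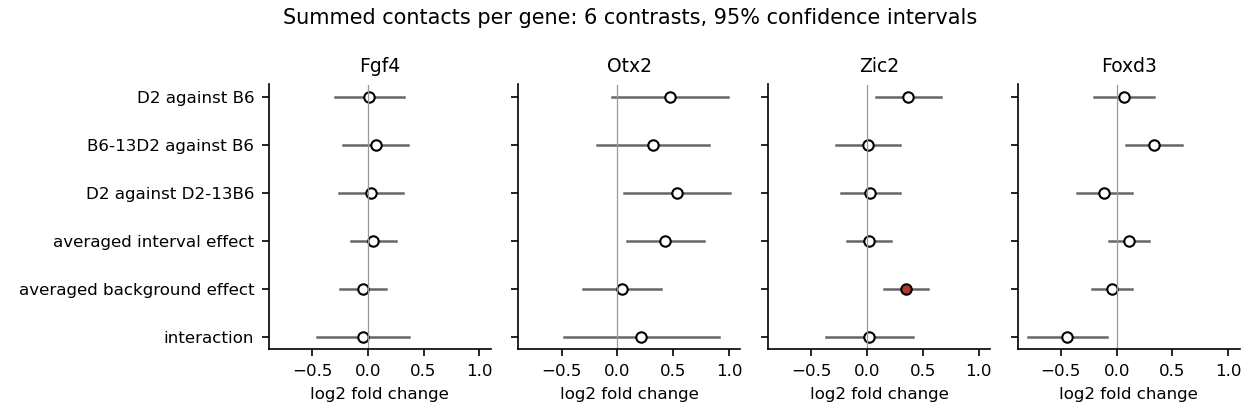
Log2 fold changes of the summed contacts of Fgf4, Otx2, Zic2 and Foxd3 in 6 contrasts, with 95% confidence intervals from edgeR as bars. The filled point, Zic2 in the averaged background effect at 0.35, is the one value past an FDR of 0.05; open points are not called.

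Single loops were tested over all 44706 loops that passed the filter. In the averaged background effect 1 of the 28 member loops was called, against 8.85% of all loops. It joined the Foxd3 anchor with chr4:99565001-99575000, a site across a gap of 75 kb where the noncoding gene Gm12690 starts. The counts were 8 and 3 in B6, 10 and 12 in B6-13D2, 12 and 13 in D2, and 26 and 24 in D2-13B6. All 4 libraries of D2 background (16.8 ± 2.00 CPM, SD, n = 4) exceeded all 4 of B6 background (7.85 ± 2.71 CPM, SD, n = 4), as for 10.8% of loops in either direction. The log2 fold change was 1.10 (SE 0.31, 95% interval 0.48 to 1.71, FDR 0.00941). The call was lost with DESeq2 (FDR 0.182), with no filter (FDR 0.137), and without the second B6 (0.92, FDR 0.0698) or the second D2 library (1.03, FDR 0.0622), and the FDR ranged from 0.00388 to 0.182 over the alternatives. The summed contacts of Foxd3 did not follow this loop, since its larger loops had values of -0.03 (to the site 5 kb away) and -0.14 (inside the anchor) in the same contrast.

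**Figure D4:**
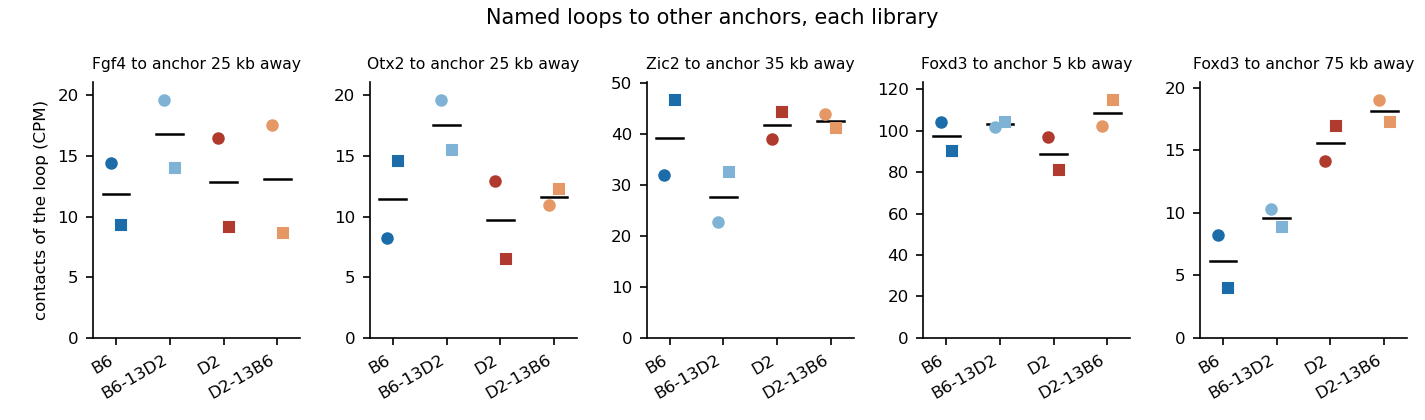
CPM in each library (circles, replicate 1; squares, replicate 2) of the largest loop of each gene to another anchor and of the called Foxd3 loop, with line means as bars; titles give the gap between anchors. The loop of Foxd3 to the site 75 kb away had means of 6.11 and 9.58 CPM in B6 and B6-13D2 and of 15.6 and 18.1 CPM in D2 and D2-13B6, whereas the other 4 loops overlapped between backgrounds.

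No single loop of Zic2 was called. In the averaged background effect 9 of its 10 tested loops had positive values, with a median of 0.47, beside 23031 of 44706 loops and a median of 0.02 in the whole table. The loops share 1 anchor and are not replicates. Over all 4 genes, 4 of the 28 loops had an unadjusted p under 0.05 in this contrast, beside 20.7% of all loops. Among those of Zic2, named after their values were seen, the loop to the body of Clybl was at 0.64 (SE 0.26, FDR 0.112), that to chr14:122430001-122440000 at 0.49 (SE 0.23, FDR 0.197) and that to Pcca, which encodes a subunit of propionyl-CoA carboxylase, at 1.00 (SE 0.48, FDR 0.205).

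In D2 against B6, 0 of the 28 loops were called, against 2.65% of all loops, with 4 at an unadjusted p under 0.05, beside 13.3% of all loops. DESeq2 called 0 and gave no adjusted p for 16 of the 28. The smallest FDR belonged to the loop of Foxd3 to Alg6, which encodes an enzyme of N-glycan assembly (chr4:99715001-99720000). It had 5 and 4 counts in B6 against 11 and 15 in D2, with 8 and 12 in B6-13D2 and 10 and 10 in D2-13B6. Its log2 fold change was 1.60 (SE 0.53, FDR 0.0717), and it was called with a scaling factor per chromosome and with a stricter filter. B6-13D2 against B6 gave 0 calls of 28 against 0.879% of all loops (1 at an unadjusted p under 0.05), and D2 against D2-13B6 gave 0 against 0.91% (2 under 0.05). The averaged interval effect gave 0 against 0.989% (3 under 0.05) and the interaction 0 against 0.602% (1 under 0.05). Over all loops, 8.97% to 10.6% had an unadjusted p under 0.05 in these 4 contrasts. DESeq2 called 0 in each of these 4 contrasts, and in each it gave no adjusted p for 25 of the 28 loops. With few counts per loop, 0 calls do not show that the lines were alike.

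To set the members beside other genes of the states, lists of naive, further formative or primed, general pluripotency and FGF and ERK pathway genes were read in the same fit. The lists were chosen with earlier results of these data known, so their counts are a description and no test. In the averaged background effect 8 of 20 tested formative or primed genes were called higher in D2 background and 0 lower, with a median log2 fold change of 0.30, against 0.02 over all genes, of which 12.5% were called higher. With an unadjusted p under 0.05, 10 of the 20 were found, 0 of them lower, beside 34.1% of all genes in either direction. Among the 8 called were Lef1, a mediator of WNT signalling (1.12, SE 0.19), Wnt8a, a WNT ligand (0.65, SE 0.18), Cdh2, N-cadherin (0.62, SE 0.23), Etv4 (0.55, SE 0.10) and Etv5 (0.19, SE 0.07), transcription factors downstream of ERK, Lefty1, an inhibitor of NODAL (0.38, SE 0.10), and Zic5, with the value of Zic2. Zic5 is no separate measurement, and Etv4 lies on chromosome 11, where the median gene was at 0.28 in this contrast. The part of these in the count was not tested. DESeq2 called 2 of the 20 higher and 0 lower, beside 1515 of all 11627 genes in either direction, and edgeR called 4 higher without the first D2 or the second D2-13B6 library.

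Of 19 naive genes tested, 5 were called higher in D2 background and 1 lower, with a median of 0.13, beside 12.5% of all genes called higher and 11.7% lower. Klf4 (0.37, SE 0.12), Tbx3 (0.29, SE 0.08), Esrrb (0.25, SE 0.07), Fbxo15 (0.22, SE 0.08) and Socs3 (0.35, SE 0.09), the feedback inhibitor of LIF signalling, on chromosome 11, rose, and the nuclear receptor gene Nr5a2 (-0.39, SE 0.14) fell. These counts ranged from 2 to 5 higher and 0 to 1 lower over the alternatives, with 2 higher under DESeq2, without the first D2 and without the second D2-13B6 library. Of 8 general pluripotency genes, 2 were called higher and 3 lower, beside 24.2% of all genes called in either direction. Tdgf1 (0.53, SE 0.08) and Sox2 (0.45, SE 0.08) rose, and Zscan10 (-0.33, SE 0.08), Lin28a (-0.33, SE 0.10) and Sall4 (-0.21, SE 0.08) fell; without the second B6-13D2 or the second D2-13B6 library, and under DESeq2, 1 was called lower.

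**Figure D5:**
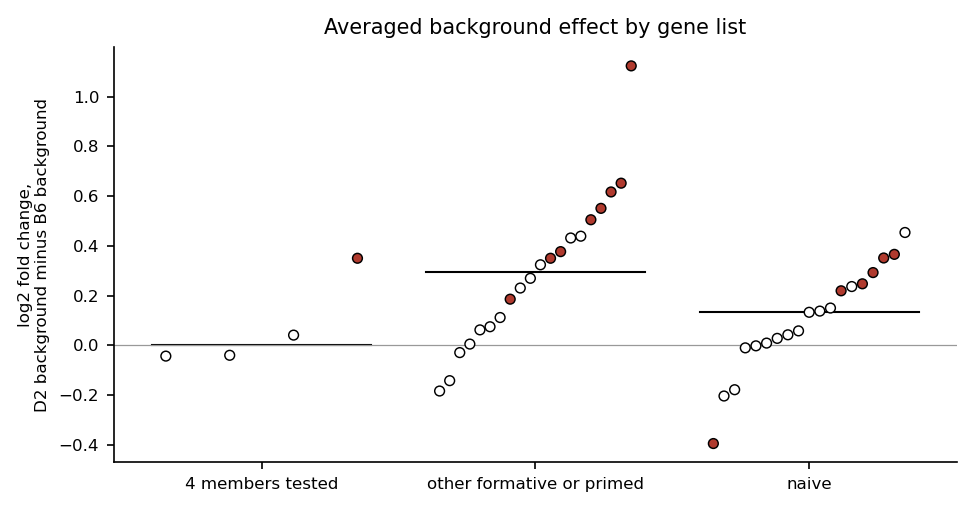
Log2 fold change of summed contacts in the averaged background effect (D2 minus B6 background) for the 4 members tested, 20 other formative or primed genes and 19 naive genes, each gene a point and filled where called at an FDR of 0.05, with list medians as bars. The medians were 0.00, 0.30 and 0.13, and the members' one filled point is Zic2.

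Of the FGF and ERK pathway, in which FGF4 is the ligand, 28 genes were tested, and 3 were called higher and 4 lower in D2 background, with a median of 0.08. Among all genes, 12.5% were called higher and 11.7% lower, so both counts are near the background. Myc (0.44, SE 0.10), Etv4 and Etv5 rose. Those that fell included Map2k1, a MEK that PD0325901 inhibits (-0.39, SE 0.07), Frs2, the adaptor of FGF receptors (-0.45, SE 0.14), and the feedback inhibitor Spry2 (-0.66, SE 0.14). Over the alternatives 2 to 6 were called higher and 2 to 5 lower, with 6 higher under library totals alone, 5 higher without the second B6 library and 2 lower without the first D2 or the second D2-13B6 library. In the averaged interval effect Spry2 (0.42, SE 0.14) was called higher with the D2 allele and Spred2 (-0.26, SE 0.07, on chromosome 11) lower. Among all genes, 3.72% were called higher and 5.05% lower in that contrast.

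For the interval, the calls of list genes differed in number between the backgrounds, a difference that was not tested as such for the lists. In B6-13D2 against B6, edgeR called 0 of the 19 naive, 20 formative or primed, 8 general pluripotency and 28 pathway genes, beside 5.7% of all genes. At an unadjusted p under 0.05 there were 2, 5, 2 and 4 of them, beside 19.0% of all genes. DESeq2 called 0 as well, but gave no adjusted p for 7, 12, 1 and 16 of them. In D2 against D2-13B6, 2 genes of each list were called lower in D2 and 0 higher, beside 6.79% of all genes called lower. They were the naive genes Socs3 (-0.77, SE 0.13) and Fbxo15 (-0.34, SE 0.11), Nodal, a ligand of the TGF-beta family (-0.37, SE 0.12), and the epithelial factor gene Grhl2 (-0.66, SE 0.22), Pou5f1, which encodes OCT4 (-0.35, SE 0.10), and Sall4 (-0.39, SE 0.11), and the pathway's inhibitor Spred2 (-0.44, SE 0.10) and adaptor Grb2 (-0.46, SE 0.11). Socs3, Spred2 and Grb2 lie on chromosome 11, where the median gene was at -0.45 in this contrast. In the averaged interval effect the de novo DNA methyltransferase gene Dnmt3a (-0.60, SE 0.15, FDR 0.00572), Socs3 (-0.51, SE 0.09, FDR 0.000169) and Sall4 (-0.25, SE 0.08, FDR 0.0336) were called lower with the D2 allele, Socs3 lying on chromosome 11. They were 1 of 20 formative or primed, 1 of 19 naive and 1 of 8 general pluripotency genes, beside 5.05% of all genes called lower.

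The median log2 CPM of the 4 members minus that of the 19 naive genes was taken within each library, each list keeping the same anchors throughout. Otx2 was the lowest and Foxd3 the highest member in every library, so the members' median is the mean of Fgf4 and Zic2. The difference therefore describes Fgf4 and Zic2 beside the naive list and is no measure of the formative state. It was -0.32 and -0.21 in B6, -0.24 and -0.12 in B6-13D2, -0.16 and 0.01 in D2, and -0.53 and -0.35 in D2-13B6. Both libraries of D2-13B6 were lowest, while B6-13D2 overlapped with B6 and with D2, whose second library was highest. Among single genes, some line stood above or below all others in 53.4%. The low value of D2-13B6 went with its naive genes, whose median log2 CPM was 7.78 and 7.81, against 7.36 to 7.56 in the other 6 libraries. The members' median was 7.25 and 7.46 in D2-13B6 and 7.14 to 7.43 elsewhere. The naive list includes Socs3 on chromosome 11, and the part of that chromosome's larger share of counts in D2-13B6 was not tested. With the 20 formative or primed genes in place of the members, the difference was -1.20 and -1.29 in B6, -1.22 and -1.44 in B6-13D2, -1.11 and -1.17 in D2, and -1.38 and -1.31 in D2-13B6. With this longer list both D2 libraries were highest, and D2-13B6 lay within the range of B6-13D2 and so did not stand apart.

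The genes on other chromosomes whose log2 CPM over the 8 libraries followed a member most closely were Dnajb4 (Pearson r = 0.98) and Plcb4 (0.97) for Zic2, Gcdh (0.97) and Bscl2 (0.93) for Foxd3, Wasl (0.94) and Dpp6 (0.92) for Otx2, and Cutal and Psmd5 (0.96 each, from 1 shared anchor) for Fgf4. They are the highest of 6111 to 6523 genes compared per member, over libraries that share depth and line, and are given as a description.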

How the data were processed

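H3K27ac HiChIP was measured in 8 libraries, 2 technical replicates of each of 4 lines. The values are counts of read pairs per loop as deposited by the authors, not normalized. Per the submitters' processing notes, the build was mm10 and the tools included BWA 0.7.18, SAMtools 1.19.2 and edgeR 3.34.1; the loop caller and its settings are not given in the sources used here. Members, lists and tests were chosen with earlier results of these data known.

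Starts came from GENCODE M21 on GRCm38. For each coding gene, the counts of all loops with an anchor within 5 kb of a start were summed, each loop once. Genes with at least 10 counts, and loops with at least 5, in at least 2 libraries were tested with edgeR 4.0.16 in R 4.3.3 (quasi-likelihood test, TMM factors on full library totals, 1 mean per line, all libraries in 1 fit). Standard errors (SE) follow from the fold change and its F statistic. CPM uses the same factors. Alternatives were DESeq2 1.42.0, other scalings and filters, other rules for starts and inner contacts, a replicate block, and each library left out. The fit was tested on simulated data. Columns that matched no sample numbered 0.

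The text names all 7 genes, and for each the contacts inside its anchor, the loop to another anchor with the most counts and every called loop; the 2 genes most correlated with each; and list genes that were called, some of which are not reported here. Counts carry no molecular identifiers, and depth limits the loops, of which 28 of the 165 had enough counts to test. A chi-square test of the 2 libraries of each line over loops found more than sampling noise, with a ratio to degrees of freedom of 1.05 to 1.20, so none were merged.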

Additional observations from a re-analysis of the deposited data

Results flagged for a closer look

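In 13 quantities and 52 groups of 4 libraries examined, 2 single libraries stood apart from the other 3, and chance gives about 1 in 20 groups. Contacts inside the Otx2 anchor were 6.64 CPM in the second B6 library, the highest of the 4 libraries with the B6 allele, against 3.60 to 4.12 CPM in the others; the value rests on 5 counts. The Foxd3 loop to the site 5 kb away was at 90.3 CPM in the second B6 library, the lowest of the 4 with B6 background, against 102 to 104 CPM in the others.

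For 2 loops the interval effect had opposite directions in the backgrounds, with every library on 1 side above every library on the other, as for 7.22% of all 44706 loops. Inside the Otx2 anchor the D2 allele went with fewer contacts in the B6 background and more in the D2 background, a difference of 2.00 between mean log2 values; the fitted interaction was 1.90 (SE 0.98, FDR 0.564) and was not called by edgeR. For the Foxd3 loop to the site 75 kb away the D2 allele went with more contacts in the B6 background and fewer in the D2 background, a difference of -0.87; the fitted interaction was -0.79 (SE 0.64, FDR 0.792) and was not called.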

How the results depend on the processing

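Of 12 counts of called genes or loops, 7 were 0 under every setting run. For genes in the averaged background effect, 1 call became 0 with DESeq2 and 0 to 1 when single libraries were left out. For the averaged interval effect and the interaction, 0 calls became 0 to 1 when single libraries were left out. For loops in the averaged background effect, 1 call became 0 with DESeq2, 0 with no filter on low counts, and 0 to 1 when single libraries were left out. For loops in D2 against B6, 0 calls became 1 with a scaling factor per chromosome and 1 with a stricter filter. The cause of these changes was not tested.

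Same-numbered libraries did not deviate together (correlations of deviations of -0.19 to 0.04). With the replicate number as a block, the call of Zic2 (0.35, FDR 0.00839) and that of the Foxd3 loop (1.10, FDR 0.0112) stood, and no member call was added. In B6-13D2 against B6 the block gave 507 called genes against 663 without it, and the crossed pairing, added after seeing the data, gave 885, with 0 members in each. Library totals alone moved the median of all genes to 0.11 in D2 against D2-13B6 and to 0.19 in the interaction. DESeq2 gave far fewer calls over all genes in each contrast, 1515 against 2812 in the averaged background effect. Each genotype is 1 line with technical replicates, and Otx2, with 332 counts, is the least precise of the 4 genes.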
